A study of Homo sapiens with 6 samples.

Results

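The genes described here are 10 NF-kappaB factors and feedback targets, and their expression was compared between WT and LSD1 KO HCT116 cells by RNA-seq. They were taken by symbol, through the Ensembl identifier, and all 10 were found among the 60240 genes of the count table. The subunits were NFKB1, NFKB2, RELA and RELB, the inhibitors and feedback regulators were NFKBIA, NFKBIZ and TNFAIP3, and the other target genes were BIRC3, ICAM1 and TNF. HCT116 is a human colorectal carcinoma cell line. There were 3 WT libraries and 3 LSD1 KO libraries, all from polyA RNA, and the labels name no treatment and no NF-kappaB stimulus in either group. LSD1 KO cells had been made with Cas9 and a single guide against exon 1 of the LSD1 gene, followed by puromycin selection and expansion of individual clones. How many clones the libraries represent was not given in the sources used here, so a difference between clones and an effect of LSD1 loss cannot be told apart, and the study's methods speak of biological replicates for its experiments in general without saying whether these libraries came from separate cultures.

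NF-kappaB is a family of dimeric transcription factors held in the cytoplasm by IkappaB proteins. In the canonical route, receptors for cytokines such as TNF activate the IKK complex, which marks IkappaB alpha for destruction and frees dimers of RELA with the processed NFKB1 product. In the non-canonical route, stabilisation of the kinase NIK leads to processing of the NFKB2 precursor, which then acts with RELB. The factors switch on their own inhibitors, so that NFKBIA and TNFAIP3 close a negative feedback loop, and they also induce several subunit genes, inhibitors of cell death such as BIRC3, and adhesion and cytokine genes such as ICAM1 and TNF.

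NF-kappaB dimers bind a DNA motif known as the kappaB consensus. It was searched on both strands in RefSeq promoter windows (GRCh38.p14) from 250 bases before to 50 bases after each start site. A window was at hand for 9 of the 10 genes, with 14 windows in all. Of these, 8 windows from 6 genes held a match, while 11.3% of the 35116 windows of all genes did. The 6 genes were NFKB1, NFKB2, NFKBIA, NFKBIZ, TNFAIP3 and BIRC3. The stretches below show the match in capitals for 1 site of each, read 5′ to 3′ on the strand of the gene. They mark which of these genes carry, before a RefSeq start site of their own, the motif of the factors that some of them encode.
NFKB1: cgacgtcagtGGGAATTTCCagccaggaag
NFKB2: aaacgtcatGGGAATTCCCCcctccgggg
NFKBIA: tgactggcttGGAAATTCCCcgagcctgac
NFKBIZ: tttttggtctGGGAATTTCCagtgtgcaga
TNFAIP3: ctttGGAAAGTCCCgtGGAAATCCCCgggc
BIRC3: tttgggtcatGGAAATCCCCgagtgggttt

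The NFKB1 stretch lies at chr4:102501300-102501329 on the plus strand, and its match spans 49 to 40 bases before the start site. The NFKBIA stretch lies at chr14:35404811-35404840 on the minus strand, with its match 81 to 72 bases before the start. The NFKBIZ stretch lies at chr3:101827757-101827786 on the plus strand, with its match 223 to 214 bases before the start. NFKB1 and NFKBIZ carried the same 10 letters on the strand of the gene, and NFKBIA carried them on the opposite strand. The TNFAIP3 stretch, at chr6:137867188-137867217 on the plus strand, holds 2 matches, both on the opposite strand. They span 67 to 46 bases before the start site of that window, which lies inside the gene span given below. The NFKB2 stretch, at chr10:102394462-102394490 on the plus strand, holds 2 overlapping matches, one on each strand, and lies before the second of the 3 start sites. The BIRC3 stretch, at chr11:102317275-102317304 on the plus strand, is the farther of 2 matches in that promoter. RELA, ICAM1 and TNF held no match in their windows. A match is a run of letters and not a measured binding site, and no binding was measured in these libraries.

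Total counts ranged from 25379279 to 29186963 per library. KDM1A, the gene of LSD1, averaged 223.1 ± 8.78 CPM in WT libraries and 28.4 ± 1.30 in LSD1 KO libraries (SD, n = 3 each), or -2.97 on the log2 scale (standard error 0.15, edgeR q value 0.000451). CPM stands for the gene's count scaled by the TMM-adjusted library size. Of 11 colorectal epithelial markers, 6 had a mean of at least 1 CPM, among them EPCAM, KRT8, KRT18, KRT19 and CDX2, and the differentiation marker CDX1 was at 0 in each library. Of 9 immune markers only LYZ reached a mean of 1 CPM, and the T cell markers CD3D and CD3E were at 0 in each library. Of 4 matched endothelial markers, 0 reached that mean. The fibroblast list summed to between 20.5 and 24.2 CPM in WT and between 30.3 and 34.4 CPM in LSD1 KO libraries, nearly all of it from COL1A1, with LUM at 0. The epithelial list summed to between 2044 and 3820 CPM in WT and between 2421 and 3161 CPM in LSD1 KO libraries, and its genes went in different directions. EPCAM (172.8 to 248.0 CPM in WT, 77.6 to 133.9 CPM in LSD1 KO) and KRT18 (396.2 to 667.2 and 348.3 to 374.6 CPM) lay lower in all LSD1 KO libraries, while the ranges of KRT19 (548.1 to 1156 and 904.7 to 1460 CPM), KRT8, CDX2 and CDH1 overlapped. With the replicate block described next, EPCAM (edgeR q value 0.0788, log2 difference -0.98) and COL1A1 (q value 0.0628, log2 difference 0.52) passed the threshold of 0.1, and without it neither did (q values 0.668 and 0.9995). In bulk RNA, fewer cells of a type and less RNA per cell cannot be told apart, and the part of these markers in the results below was not tested. Libraries with the same replicate number deviated together from their group means, with Pearson's r of 0.531, 0.530 and 0.388 across 17672 genes, and a model with the replicate number as a block was therefore run beside the model without it.

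None of the 10 genes was called differentially expressed between LSD1 KO and WT cells. In edgeR's quasi-likelihood test, the 8 genes with enough counts to be tested each had a q value of 0.9995, against the threshold of 0.1, and 0 of them had an unadjusted p under 0.05. In the same fit 1 of 17672 genes (0.00566%) had a q value under 0.1, the knocked-out gene KDM1A itself, and 3.12% had an unadjusted p under 0.05. With the replicate block, 0 of the 8 genes passed that threshold, beside 1.6% of all genes (1.05% higher and 0.549% lower in LSD1 KO cells). NFKBIA alone of the 8 had an unadjusted p under 0.05 there, beside 13.4% of all genes. DESeq2's Wald test called 0 of the 9 genes to which it gave a q value and 0.37% of all genes, and there BIRC3 was the 1 of the 9 with an unadjusted p under 0.05, beside 2.58% of all genes. DESeq2 with the block called 0 of 8 genes and 3.96% of all genes, and NFKBIA was the 1 of the 8 with an unadjusted p under 0.05, beside 11.3% of all genes. In each of the 8 genes the WT and LSD1 KO libraries overlapped, whereas in 7.74% of all genes tested they did not. The log2 fold changes ran from -0.31 for NFKBIA to 0.81 for BIRC3, 5 positive and 3 negative, with a median of 0.10 beside 0.00080 over all genes tested. The median was -0.17 without LSD1 KO replicate 2 and -0.11 without WT replicate 1, so that leaving out either library turned its sign.

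**Figure D1:**
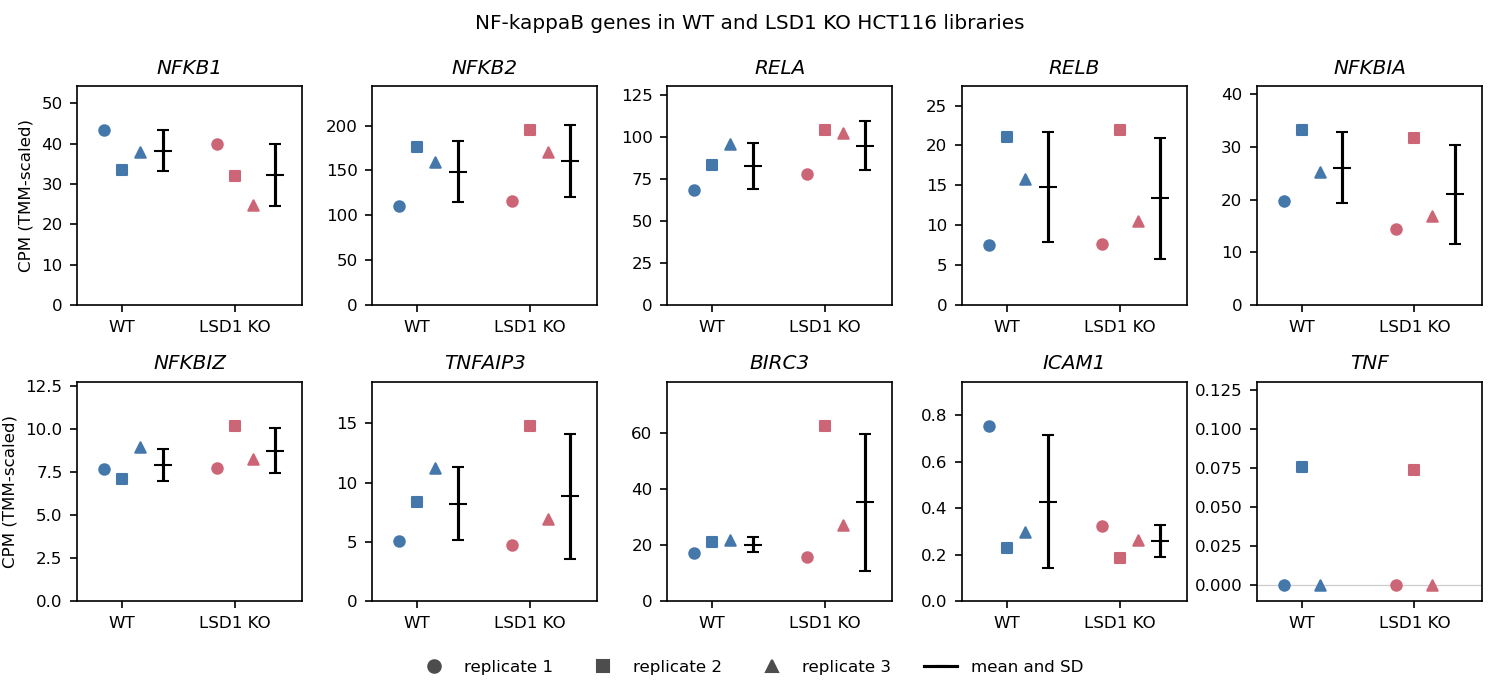
Expression of each of the 10 genes in CPM (vertical axis, starting at 0 except for TNF, linear, with its own scale in each panel) in the 3 WT libraries and the 3 LSD1 KO libraries. Symbols give the replicate number and the bars the mean and SD (not drawn for TNF, which had 2 counts or none per library). In every panel the values of the groups overlap, and the LSD1 KO library of replicate 2 lies far above the others for BIRC3.

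Among the subunits, NFKB1 (ENSG00000109320, chromosome 4 from 102501359 to 102617302, GRCh38), the gene of the p105 precursor and p50, was at 43.5, 33.5 and 38.0 CPM in WT replicates 1, 2 and 3 and at 40.0, 32.0 and 24.8 CPM in the same replicates of LSD1 KO cells. Its LSD1 KO library was the lower of each same-numbered pair, by little in pairs 1 and 2 and by more in pair 3. The fitted difference was -0.25 on the log2 scale (standard error 0.21, 95% interval -0.72 to 0.23), and it ran from -0.089 without LSD1 KO replicate 3 to -0.43 without LSD1 KO replicate 1.
NFKB2 (ENSG00000077150, chromosome 10 from 102394110 to 102402529), the gene of the p100 precursor that non-canonical signalling processes, was at 110.9, 176.3 and 159.1 CPM in WT and at 116.0, 195.2 and 170.0 CPM in LSD1 KO replicates 1, 2 and 3. Replicate 1 was the low library in both groups, and within each pair the values lay close together. On the log2 scale the fitted difference was 0.11 (standard error 0.25, 95% interval -0.45 to 0.67), and with the replicate block it was 0.10 with an interval from -0.088 to 0.29. Without the block its sign turned when WT replicate 1 (-0.065) or LSD1 KO replicate 2 (-0.075) was left out.
RELA (ENSG00000173039, chromosome 11 from 65653601 to 65663857), the main activating subunit of canonical signalling, was at 68.6, 83.4 and 95.7 CPM in WT and at 78.0, 104.1 and 102.2 CPM in LSD1 KO libraries. The LSD1 KO library was the higher of each pair, but the lowest LSD1 KO library lay below 2 of the WT libraries. For RELA the log2 fold change was 0.20 (standard error 0.19, 95% interval -0.23 to 0.63), and it ran from 0.081 without WT replicate 1 to 0.32 without LSD1 KO replicate 1.
RELB (ENSG00000104856, chromosome 19 from 45001464 to 45038192), the partner of processed NFKB2, was at 7.48, 21.1 and 15.8 CPM in WT and at 7.62, 22.0 and 10.6 CPM in LSD1 KO libraries. The difference between replicates 1 and 2 was 2.82-fold in WT and 2.88-fold in LSD1 KO cells, far larger than any difference within pairs 1 and 2. RELB had a fitted log2 difference of -0.14 (standard error 0.46, 95% interval -1.19 to 0.90). Its sign turned without WT replicate 2 (0.20), without LSD1 KO replicate 1 (0.14) and without LSD1 KO replicate 3 (0.0060).

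Among the inhibitors and feedback regulators, NFKBIA (ENSG00000100906, chromosome 14 from 35401513 to 35404749), which encodes IkappaB alpha, was at 19.8, 33.2 and 25.2 CPM in WT and at 14.4, 31.7 and 16.9 CPM in LSD1 KO replicates 1, 2 and 3. Its LSD1 KO library was the lower of each pair, with log2 differences of -0.43, -0.065 and -0.55, yet LSD1 KO replicate 2 lay above 2 of the WT libraries. The log2 fold change was -0.31 (standard error 0.32, 95% interval -1.04 to 0.42) without the block. With the replicate block it was -0.36 (standard error 0.13, 95% interval -0.66 to -0.069), with an unadjusted p of 0.0214 and a q value of 0.275 in edgeR. NFKBIA passed the threshold in 1 of the 17 alternative analyses, the fit with the block on pairs 1 and 3 only (log2 fold change -0.54, q value 0.0173 from edgeR). Over these analyses its log2 fold change stayed negative, from -0.75 to -0.10, and its q value ranged from 0.0173 to 1.
NFKBIZ (ENSG00000144802, chromosome 3 from 101827990 to 101861022), which encodes the nuclear IkappaB zeta, was at 7.67, 7.12 and 8.95 CPM in WT and at 7.72, 10.2 and 8.29 CPM in LSD1 KO libraries. It spread least of the 8 genes, with 1.43-fold between the highest and the lowest library, and its log2 fold change was 0.14 (standard error 0.22, 95% interval -0.36 to 0.65). Without LSD1 KO replicate 2 it was -0.0007, and with the block and without replicate 2 of both groups it was -0.068.
TNFAIP3 (ENSG00000118503, chromosome 6 from 137866349 to 137883312), the gene of A20, a ubiquitin-editing enzyme that shuts off signalling to IKK, was at 5.10, 8.37 and 11.2 CPM in WT and at 4.72, 14.8 and 6.97 CPM in LSD1 KO libraries. The pairs disagreed in direction, with log2 differences of -0.093, 0.76 and -0.62. TNFAIP3 had a fitted log2 difference of 0.10 (standard error 0.45, 95% interval -0.92 to 1.12), and it was -0.52 without LSD1 KO replicate 2 and -0.15 without WT replicate 1.

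Among the other targets, BIRC3 (ENSG00000023445, chromosome 11 from 102317484 to 102339403), which encodes the ubiquitin ligase cIAP2, an inhibitor of cell death, was at 17.2, 21.2 and 21.9 CPM in WT and at 15.8, 62.5 and 27.2 CPM in LSD1 KO replicates 1, 2 and 3. LSD1 KO replicate 2 stood apart at 2.30-fold the level of LSD1 KO replicate 3, and LSD1 KO replicate 1 was the lowest of all the libraries. The WT mean was 20.1 ± 2.54 CPM, and the LSD1 KO mean was 35.2 ± 24.3 CPM (SD, n = 3 each; two-sided exact permutation test, p = 0.5). For BIRC3 the log2 fold change was 0.81 (standard error 0.43, 95% interval -0.18 to 1.79), and it was 0.079 without LSD1 KO replicate 2. With the block and without replicate 1 of both groups it was 0.94 and passed the threshold (q value 0.0989 from edgeR), while over the 17 alternatives the q value ranged from 0.0989 to 1.
ICAM1 (ENSG00000090339, chromosome 19 from 10271120 to 10286615), the adhesion molecule that leukocytes bind and one of the classical NF-kappaB targets, was counted 20, 6 and 9 times in the WT libraries and 9, 5 and 7 times in the LSD1 KO libraries. These were too few for the edgeR fit. DESeq2's Wald test, which had no such filter, gave a log2 difference of -0.73 (standard error 0.87, unadjusted p = 0.401). They correspond to between 0.184 and 0.756 CPM, the highest in WT replicate 1, and the other libraries of both groups overlapped (two-sided exact permutation test, p = 0.5, n = 3 libraries each).
TNF (ENSG00000232810, chromosome 6 from 31575565 to 31578336), the cytokine that activates the pathway, had 2 counts in replicate 2 of each group and 0 counts in the other libraries. All values lay below the floor of 3 counts, which corresponds to between 0.0994 and 0.114 CPM and covers counting error only, so no difference in TNF was detectable at this depth.

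**Figure D2:**
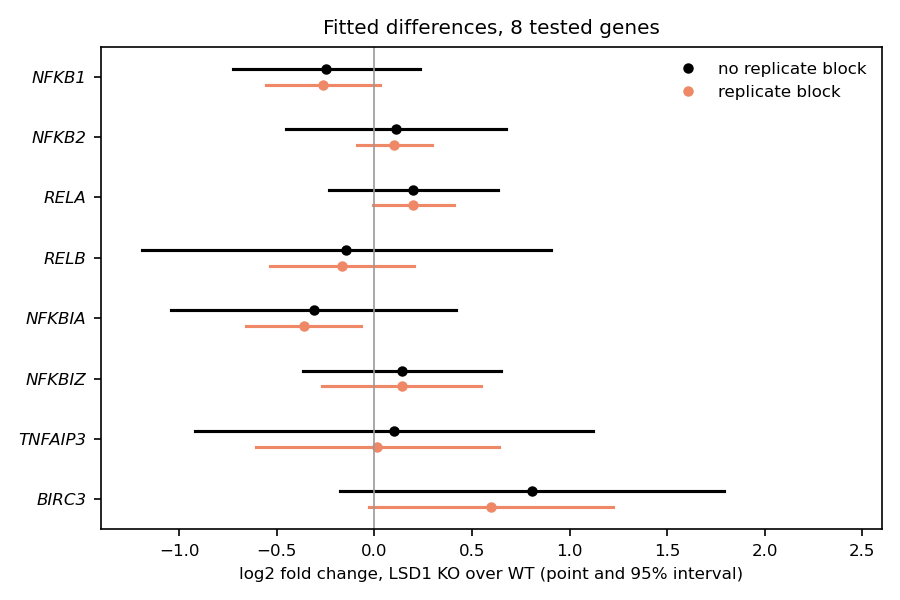
Log2 fold change of LSD1 KO over WT (horizontal axis) with its 95% interval for the 8 tested genes, from edgeR without the replicate block (black) and with it (orange). The intervals without the block all include 0, and with the block the NFKBIA interval, from -0.66 to -0.069, does not.

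The levels of the genes were compared with each other per kilobase of the canonical transcript (GENCODE v44lift37), since counts grow with length. On this scale of CPM per kilobase, the subunit NFKB2 had the highest mean level in WT cells, at 49.3 ± 11.2 (SD, n = 3), followed by RELA at 32.8 ± 5.38, and their ranges overlapped. NFKBIA came next at 16.7 ± 4.33, apart from RELA above it and from NFKB1 below it at 9.45 ± 1.23. RELB, at 6.54 ± 3.04, overlapped with NFKB1, and the target BIRC3, at 2.92 ± 0.370, lay below the range of RELB. NFKBIZ at 2.02 ± 0.239 and TNFAIP3 at 1.76 ± 0.658 overlapped, and ICAM1 at 0.144 ± 0.0967 lay below both. In LSD1 KO cells the order of the means was the same, but the ranges of neighbours overlapped all the way from NFKBIA at 13.5 to TNFAIP3 at 1.89 ± 1.14. RELA, from 31.0 to 41.4, still lay above the range of NFKBIA, from 9.27 to 20.3.

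**Figure D3:**
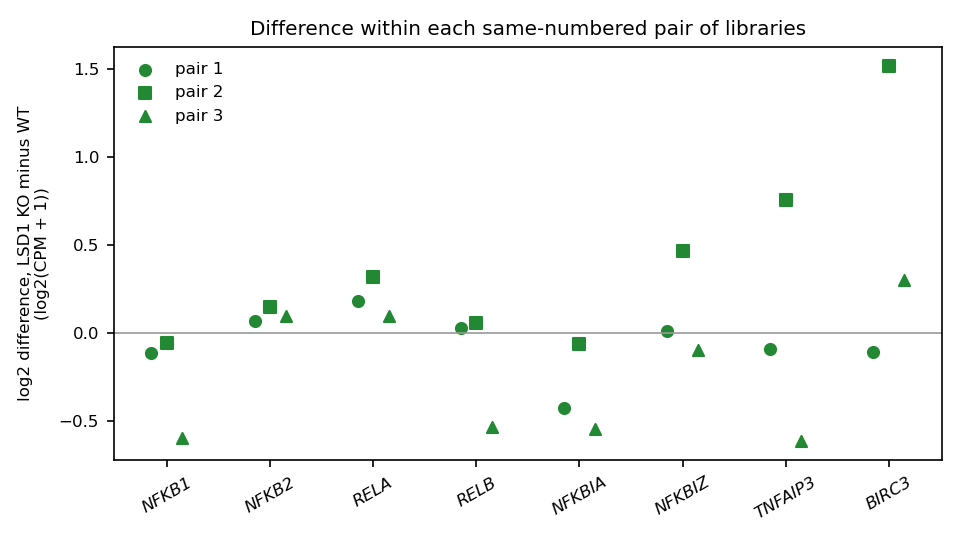
Log2 difference between the LSD1 KO and the WT library of the same replicate number (vertical axis, on log2(CPM + 1)) for the 8 tested genes. The differences of NFKB2 and RELA lie between 0.065 and 0.32 in all pairs, while those of BIRC3 run from -0.11 in pair 1 to 1.52 in pair 2.

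Within the same-numbered pairs, 4 of the 8 genes differed in the same direction in all 3 pairs, and so did 36.3% of all genes tested. The LSD1 KO library was the higher of each pair for NFKB2 and RELA and the lower of each pair for NFKB1 and NFKBIA. RELB, NFKBIZ, TNFAIP3 and BIRC3 changed direction between pairs.

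The libraries of these genes also differed by replicate number. Replicate 1 was the lowest library of its group, in both groups, for 6 of the 8 genes, as it was for 22.3% of all genes tested. The 6 genes were all but NFKB1 and NFKBIZ. Replicate 2 was the highest of both groups for 3 genes, NFKB2, RELB and NFKBIA, beside 25.1% of all genes, and the lowest of both groups for 0 of the 8, beside 26.0% of all genes. LSD1 KO replicate 2 was the highest of the 6 libraries for 6 of the 8 genes, NFKB2, RELA, RELB, NFKBIZ, TNFAIP3 and BIRC3, and it was the highest for 20.3% of all genes tested. These patterns were chosen after the values had been seen. What the replicate numbers stand for was not given in the sources used here, and its part in these results was not tested.

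Over the 6 libraries, the 28 pairs among the 8 genes had a median Pearson's r of 0.682 on log2(CPM + 1), and 21 of them were positive. These are descriptions over 6 libraries that share replicate and genotype, with no test. RELB was most like NFKBIA (r = 0.920), NFKB2 (r = 0.893) and TNFAIP3 (r = 0.889). NFKB1 was the exception: it ran against all of the other 7 genes, most of all RELA (r = -0.771) and NFKB2 (r = -0.723) and least NFKBIA (r = -0.079). TNFAIP3 and BIRC3, both targets, had an r of 0.821. Among 14704 genes outside the lists with a mean of at least 1 CPM, the 5 most like NFKBIA were IRF5, CHPF, RTN4, CIAO3 and CHST14, with r from 0.990 to 0.995.

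**Figure D4:**
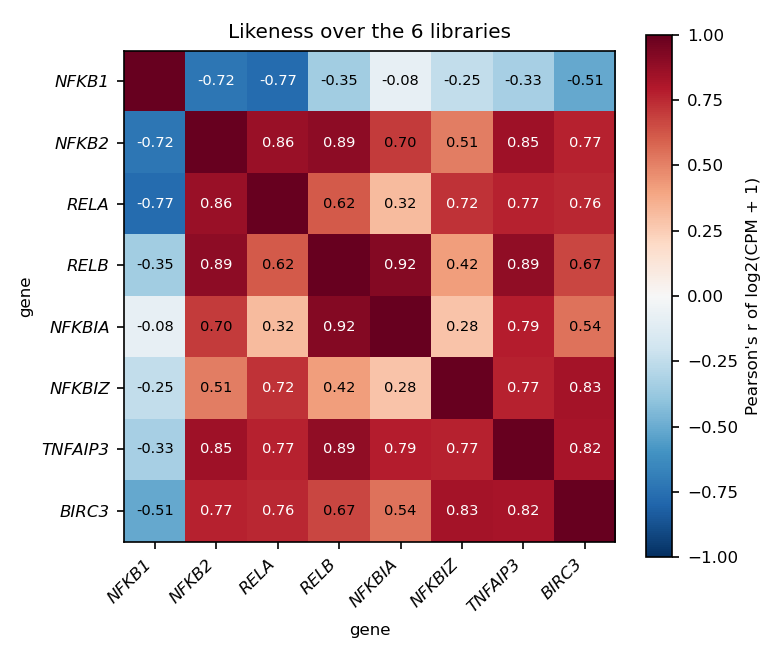
Pearson's r of log2(CPM + 1) over the 6 libraries for each pair of the 8 tested genes (both axes list the genes, the colour gives r from -1 to 1). The row of NFKB1 is negative throughout, and the highest value, 0.92, joins RELB and NFKBIA.

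The rest of the pathway was read from lists of 107 genes, of which 106 were matched and 84 had enough counts to be tested. Of these 84 genes, 0 had a q value under 0.1 in edgeR without the block and 1, IL18, had an unadjusted p under 0.05. DESeq2's Wald test called 0 of 96 genes, and there too IL18 was the 1 gene with an unadjusted p under 0.05. With the replicate block 2 of 84 genes were called, BCL3 and IL18, both higher in LSD1 KO cells, beside 1.6% of all genes. In that fit 11 of the 84 genes had an unadjusted p under 0.05, a share close to the 13.4% of all genes. The median log2 fold change was 0.017 over the 84 genes, with 43 positive and 41 negative, beside 0.00080 over all genes tested. The LSD1 KO libraries lay above all WT libraries for 4 of the 84 genes and below them for 5, beside 4.22% and 3.51% of all genes tested.

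BCL3, an atypical IkappaB protein that works in the nucleus with NF-kappaB subunits, was at 14.5, 30.5 and 30.9 CPM in WT and at 22.5, 55.7 and 43.96 CPM in LSD1 KO replicates 1, 2 and 3. It was higher in the LSD1 KO library of each pair, and replicate 1 was the lowest library of both groups. The groups overlapped, as LSD1 KO replicate 1 lay below WT replicates 2 and 3. Its log2 fold change was 0.69 (standard error 0.38, q value 0.9995 from edgeR) without the block and 0.67 (standard error 0.11, q value 0.0354) with it, and over the 17 alternatives the q value ran from 0.000754 to 1. In the fit without the block the BCL3 difference was 0.37 without LSD1 KO replicate 2, 0.41 without WT replicate 1 and 0.98 without LSD1 KO replicate 1. IL18, a cytokine of the IL-1 family that epithelial cells make, was at 38.6, 56.0 and 40.5 CPM in WT and at 67.3, 100.4 and 74.3 CPM in LSD1 KO libraries. All LSD1 KO libraries lay above all WT libraries. In both fits its log2 fold change was 0.84 (standard error 0.22, q value 0.788 from edgeR without the block, and standard error 0.087, q value 0.0106 with it), and over the 17 alternatives the q value ran from 9.11e-10 to 1.

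REL, the remaining subunit of the family, was at 27.6, 3.41 and 20.7 CPM in WT and at 23.8, 6.34 and 28.2 CPM in LSD1 KO replicates 1, 2 and 3. Both replicate 2 libraries were low, at 0.123-fold and 0.267-fold the replicate 1 library of their group, while replicates 1 and 3 of the groups overlapped. Its log2 fold change of 0.17 had a standard error of 0.71, and its sign turned without WT replicate 2 (-0.33), LSD1 KO replicate 1 (-0.0008) or LSD1 KO replicate 3 (-0.21). In the same replicate 2 libraries RELB and NFKBIA were at their highest of each group.
Among the other IkappaB genes, NFKBIB differed by -0.31 on the log2 scale (standard error 0.24), and by -0.026 without WT replicate 2. Of the 13 genes of kinases and their regulatory partners, 0 were called by edgeR with or without the block. IRAK1, a kinase downstream of IL-1 and Toll-like receptors, was between 96.0 and 102.3 CPM in WT and between 71.6 and 87.6 CPM in LSD1 KO libraries, without overlap, at a log2 fold change of -0.32 and a q value of 0.178 from edgeR with the block (from 0.0806, with the block on pairs 1 and 3 only, to 1 over the alternatives). TAB2, an adaptor of the kinase TAK1, was between 98.8 and 113.8 CPM in WT and between 120.5 and 133.9 CPM in LSD1 KO libraries (log2 fold change 0.23, standard error 0.15).
Of the 16 adaptor and ubiquitin genes, 0 were called by edgeR with or without the block, and in the fit without the block the smallest p belonged to TRAF5 (log2 fold change -0.31) and TRAF6 (0.34). Of the 12 tested negative regulators, edgeR with or without the block called 0. DESeq2 with the block called 1, ITCH (q value 0.0432), beside 3.96% of all genes. ITCH, a ubiquitin ligase that works with A20, had LSD1 KO libraries from 99.6 to 135.2 CPM above WT libraries from 80.1 to 98.5 CPM, at a log2 fold change of 0.36 and a q value of 0.130 from edgeR with the block (from 0.0432 to 1 over the alternatives). It also passed in edgeR with the block on pairs 1 and 3 only (q value 0.0472). TNIP1, a partner of A20, differed by 0.28 on the log2 scale (standard error 0.20).

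Of 19 receptors 16 were tested and 0 called by edgeR with or without the block, with log2 fold changes of 1.03 (standard error 0.58) for TNFRSF1B, the second TNF receptor, and 0.63 (standard error 0.38) for IL1RAP, the accessory chain of the IL-1 receptor. TNFRSF1B averaged 0.397 ± 0.208 CPM in the WT libraries and 0.818 ± 0.387 in the LSD1 KO libraries (SD, n = 3 each). Of 10 ligands only 3 had enough counts to be tested, among them IL18, above, and TNFSF12, which encodes TWEAK and differed by 0.092 on the log2 scale (standard error 0.30), with its sign turning without WT replicate 1 (-0.066) or LSD1 KO replicate 2 (-0.29). Leaving out single libraries moved the values of TNFRSF1B from 0.63 to 1.45, of IL1RAP from 0.40 to 0.98, of TRAF6 from 0.16 to 0.45 and of TNIP1 from 0.13 to 0.38.
Of the 30 further target genes, 29 were matched and 19 were tested, and 0 were called by edgeR with or without the block. SELE, an endothelial adhesion molecule, had 0 counts in each library, and IL6 had at most 2 counts in any library. CCL5, a chemokine, was between 3.10 and 4.51 CPM in WT and between 2.80 and 2.95 CPM in LSD1 KO libraries (log2 fold change -0.49, standard error 0.28), and CXCL2, also a chemokine, differed by 0.68 on the log2 scale (standard error 0.41). LSD1 KO replicate 2 was the highest of the 6 libraries for 13 of these 19 target genes, beside 20.3% of all genes tested. The target list was singled out for this after the values had been seen. In the other lists that library was the highest for 1 of 13 kinase genes and 3 of 16 adaptor genes. It was so for 5 of 12 negative regulators, 6 of 16 receptors, 2 of 4 IkappaB genes and 2 of 3 ligands, and not for REL. CXCL8, the neutrophil chemokine, was one of the 13 target genes and, like SELE and IL6, is named after its values had been seen. It was at 2.34, 3.94 and 2.68 CPM in WT and at 1.502, 11.8 and 2.12 CPM in LSD1 KO replicates 1, 2 and 3, and the high library was the one in which BIRC3 was also high.

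**Figure D5:**
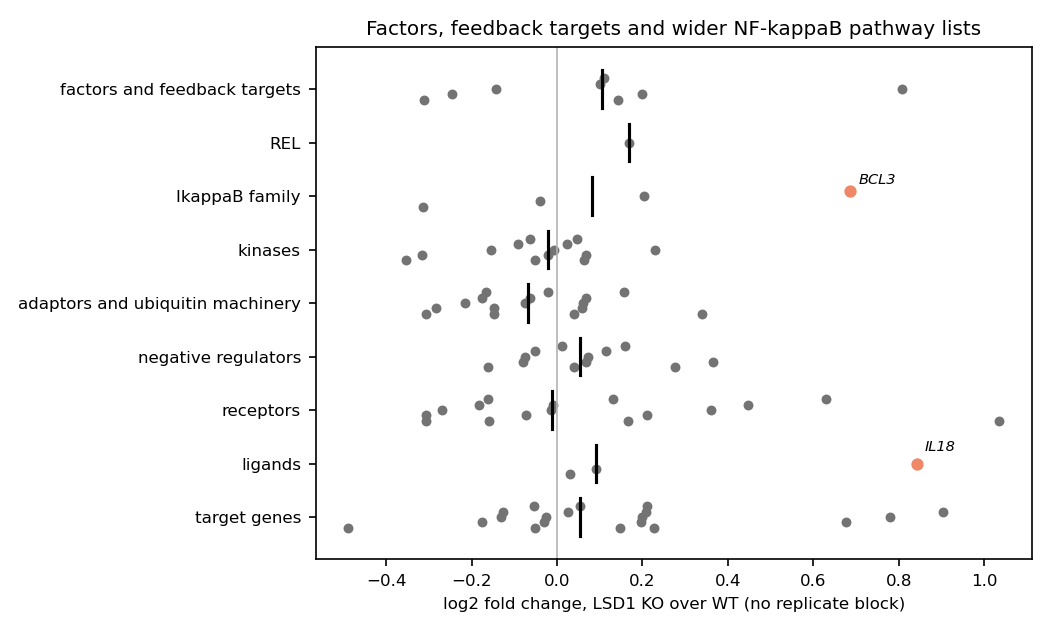
Log2 fold change of LSD1 KO over WT without the replicate block (horizontal axis) for the 8 tested factors and feedback targets and the 84 tested genes of the wider lists, 1 point per gene, with the list median as a bar (the row of kinases includes their regulatory partners, such as TAB2). Orange points are BCL3 and IL18, which had a q value under 0.1 with the replicate block, and the list medians lie on both sides of 0.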

How the data were processed

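RNA-seq was measured in 3 WT and 3 LSD1 KO HCT116 libraries. Per the labels and the study's methods, the authors checked reads with FastQC, trimmed them with Trimmomatic 0.39, quantified them with Salmon 1.4.0 against GENCODE transcripts on GRCh38, and deposited expected counts per gene as whole numbers without scaling. The step from transcripts to genes was not given in the sources used here. Salmon shares reads between similar transcripts, and the library kit was not described as marking strand.

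Counts were fitted over all genes with edgeR 4.0.16 in R 4.3.3 (TMM, filterByExpr, quasi-likelihood test, Benjamini-Hochberg adjustment, q value under 0.1). Intervals are at 95% confidence, from the estimate, its standard error and a t quantile. Alternatives were other size factors and filters, DESeq2 1.42.0, the replicate block and leaving out libraries or pairs. Symbols were matched for 58395 of 60240 genes; SOD2 and PECAM1 were unmatched. Gene positions and promoters came from RefSeq (GRCh38.p14). The fits were checked on simulated data.

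The pairing by replicate number was taken from the data, since the correlation of deviations was over 0.1 in each pair, as given with the depth. With 3 libraries against 3, no exact permutation p below 0.1 is possible, and p-values measure only the spread between these libraries. The genes and lists were chosen with earlier results of these data known. The genes named are the 10 genes, KDM1A, pathway genes called in the fit with or without the block, the 2 with the smallest p of each list, and the 5 genes most like NFKBIA. Other names were added after their values were seen.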

Additional observations from a re-analysis of the deposited data

How the results depend on the processing

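The number of the 10 genes called was 0 in every analysis except 2 fits with the replicate block on 2 of the pairs, where it was 1 (BIRC3 without pair 1, NFKBIA without pair 2), so that leaving out libraries gave from 0 to 1. The wider pathway lists gave 0 called genes without the block, and 2 of 84 with the replicate block, beside 1.6% of all genes. DESeq2 with the replicate block called 3 of 80 (BCL3, IL18 and ITCH), beside 3.96% of all genes. Leaving out libraries or pairs gave from 0 to 6. The 6 came from the block without pair 2, where 1055 of all genes were called. All genes called numbered 1, and 114 with no filter, 95 with DESeq2's Wald test, 282 with the replicate block, 593 with the replicate block in DESeq2, 1 to 26 without single libraries (26 without LSD1 KO replicate 2), and with the replicate block 428, 1055 and 198 without pairs 1, 2 and 3. The median log2 fold change of the 8 tested genes was 0.059 with the replicate block, -0.17 to 0.26 without single libraries and -0.19 to 0.18 with the block without single pairs. Signs turned without single libraries, or with the replicate block without single pairs, for NFKB2 (-0.075 to 0.30, and 0.063 to 0.12), RELB (-0.72 to 0.20, and -0.31 to 0.047), NFKBIZ (-0.0007 to 0.24, and -0.068 to 0.27), TNFAIP3 (-0.52 to 0.40, and -0.44 to 0.38), REL (-0.33 to 0.68, and 0.094 to 0.64) and TNFSF12 (-0.29 to 0.28, and -0.10 to 0.17), and the cause was not tested. The replicate block on all 3 pairs changed the edgeR call of BCL3 and IL18 and of the markers EPCAM and COL1A1, and of no other named pathway gene. NFKB1, RELA, NFKBIA and BIRC3 kept their direction in all 17 alternatives. Allowing 1 letter of the kappaB consensus to vary gave a match in all 9 genes with a window instead of 6, and 34.8% of all windows then held one. Depth limited ICAM1 and TNF, which the count filter left out of the edgeR fit.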
